A study of Mus musculus with 4 samples.

Results

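The Notch effectors and the Hes and Hey target genes were described in muscle progenitor cells of aged and young mice as 9 genes, chosen by name: the DNA-binding protein Rbpj, its coactivator Maml1, the repressors Hes1, Hes5, Hes6, Hey1, Hey2 and Heyl, and the feedback gene Nrarp. All 9 were on the array, each with 1 probe set, among 19572 probe sets that carried 1 gene symbol and covered 19505 genes. Cells were sorted from muscle of C57Bl/6 mice as positive for both CD29 and ITGA7, integrins that enrich satellite cells, the stem cells of muscle. The aged group (2 years) and the young group (5 weeks) had 2 arrays each, hybridised with cDNA from 1 ng of total RNA. The groups shared the strain, tissue and sort, and no other treatment or genotype was given. Whether the arrays of a group came from separate or from pooled animals is not stated in the labels, so p-values cover the spread between these samples alone, which may be technical. The young mice were still growing, so maturation and ageing cannot be told apart in this comparison.

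Notch is a receptor that is cleaved when a ligand on a neighbouring cell binds it. Its intracellular part enters the nucleus, joins Rbpj and a Mastermind-like coactivator such as Maml1, and turns on genes of the Hes and Hey families, which encode basic helix-loop-helix repressors. In satellite cells this signal is known to hold the cells in an undifferentiated, quiescent state, and Hey1 and Heyl act together there. Nrarp, another direct target, dampens the signal by binding the Rbpj complex, and Hes6 is known to oppose Hes1 and to favour differentiation.

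Rbpj recognises DNA with the core letters TGGGAA, so promoters of members are shown with this core marked. RefSeq promoter entries of the build GRCm38.p6 were matched for 6 of the 9 genes (8 entries), all but Hes1, Hey1 and Heyl, and the 250 bases before each annotated start were searched on both strands. The 3 printed here hold different numbers of the core, which is in capitals (TTCCCA where it lies on the other strand): Hes5 has 2, Hey2 has 1 and Nrarp, the member with the smallest p-value, has none. They lie at chr4:154960673-154960922 on the plus strand for Hes5, chr10:30842784-30843033 on the minus strand for Hey2 and chr2:25180508-25180757 on the plus strand for Nrarp, and run 5′ to 3′ along the gene.
Hes5: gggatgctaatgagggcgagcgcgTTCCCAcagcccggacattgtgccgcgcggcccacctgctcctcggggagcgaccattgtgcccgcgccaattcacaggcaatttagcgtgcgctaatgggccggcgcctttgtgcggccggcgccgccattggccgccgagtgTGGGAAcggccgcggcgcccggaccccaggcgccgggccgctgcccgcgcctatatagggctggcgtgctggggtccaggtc
Hey2: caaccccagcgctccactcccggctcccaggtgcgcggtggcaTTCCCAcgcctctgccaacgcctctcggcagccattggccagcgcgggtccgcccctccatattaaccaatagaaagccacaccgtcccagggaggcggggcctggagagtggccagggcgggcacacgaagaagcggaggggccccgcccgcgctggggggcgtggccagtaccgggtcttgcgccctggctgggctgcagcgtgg
Nrarp: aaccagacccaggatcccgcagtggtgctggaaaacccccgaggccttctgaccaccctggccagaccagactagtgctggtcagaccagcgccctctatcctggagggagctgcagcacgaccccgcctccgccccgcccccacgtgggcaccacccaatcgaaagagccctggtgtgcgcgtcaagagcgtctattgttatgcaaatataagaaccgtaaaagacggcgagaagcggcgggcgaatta
Counting the last base before the start as -1, the cores of Hes5 begin at -226 and -82 and that of Hey2 at -207. The core occurred in 4 of the 8 member entries, those of Hes5, Hey2 and both of Rbpj, which overlap by 110 bases and share 1 core, and in 21.6% of all 32851 promoter entries; 2 or more cores, as in Hes5 and 1 entry of Rbpj, occurred in 2.77%. The N box CACNAG, a site of Hes proteins, was in 2 of the 8 member entries and 36.7% of all, and the E box CANNTG in 6 of the 8 and 66.2% of all. No N box or E box in the member entries overlapped an Rbpj core. A match describes the letters only, and the missing core in Nrarp says nothing of sites outside this window.

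None of the 9 genes differed between the ages past the limma threshold (adjusted p of 0.685 to 0.995), and none was at an unadjusted p under 0.05, against 7.35% of all tested probe sets. Over the whole table limma called 0 probe sets at an adjusted p under 0.05 and 1438 at an unadjusted p under 0.05. The differences, aged minus young, ran from -0.67 for Hey1 to 0.81 for Heyl, with 8 positive and 1 negative. Their median was 0.19 log2 units against -0.0013 over all probe sets, and their median size was 0.30 against 0.29. The groups did not overlap for 3 of the 9, against 36.6% of all probe sets. Heyl and Nrarp were so separated upwards in aged arrays (18.2% of all probe sets were) and Hey1 downwards (18.4% were). All values are in the log2 units of the deposited table and are not given as folds, because levels up to 19.4 leave the exact scale uncertain.

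**Figure D1:**
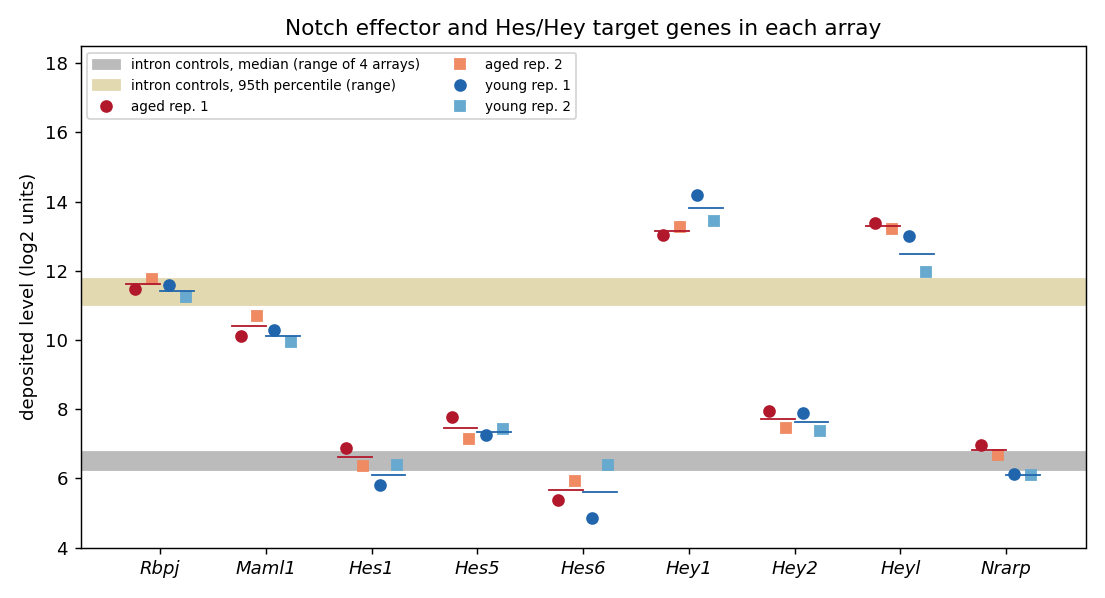
Deposited log2 level of each member in the 4 arrays (red, aged; blue, young; horizontal lines, group means). The grey and tan bands span, over the 4 arrays, the median and the 95th percentile of 5222 intron control probe sets; Hey1 and Heyl lie above the tan band, and Hes1, Hes6 and Nrarp lie near or below the grey one.

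All 10 satellite cell markers, Pax7 and Itga7 among them, were read above the intron control median in all 4 arrays, but so were all 11 pericyte and smooth muscle markers and all 8 measured fibroblast-like (fibro-adipogenic) markers. Signal can therefore come from several cell types, and in such bulk samples fewer cells of a type cannot be told apart from less RNA per cell. Endothelial markers (9 measured) averaged 7.29 and 6.40 in aged arrays but 6.64 and 9.46 in young ones, so that young replicate 2 stood apart. Of 11 measured G2 and M phase genes, 8 were lower in aged arrays at an unadjusted p under 0.05 (3.99% of all probe sets were). Higher in aged arrays at that level were 6 of 8 granulocyte, 4 of 7 lymphocyte, 3 of 9 macrophage and 2 of 9 mature fibre markers (3.36% of all probe sets were), and none of 3 Schwann cell markers was. Of the 9 macrophage markers, 3 and 2 were above the intron control median in aged arrays and 2 in each young one. Of the 7 lymphocyte markers, 3 and 5 were so in aged arrays and 2 and 0 in young ones. The mature fibre markers averaged 12.72 in aged replicate 1 but 9.35 in aged replicate 2, against 9.26 and 8.83 in young arrays. For these markers aged replicate 1 thus stood apart. The area under the curve separating exon from intron control probe sets was 0.792 and 0.819 in aged arrays against 0.849 and 0.823 in young ones. The part of these cell markers in the results on the Notch genes was not tested.

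The readings of the core of the complex overlapped between the ages. Rbpj, which binds the DNA, was at 11.47 and 11.75 in aged arrays against 11.58 and 11.26 in young ones. The groups overlapped, and the difference was 0.19 ± 0.31 (SE, n = 2 per group; 95% interval -0.57 to 0.95; limma adjusted p of 0.932). Its readings lay between the 93.9 and 96.4 percentiles of the intron controls of their arrays. Maml1, which bridges the complex to histone acetyltransferases, was at 10.13 and 10.70 in aged arrays against 10.29 and 9.94 in young ones. Aged replicate 2 was highest, the groups overlapped, and the difference was 0.30 ± 0.34 (95% interval -0.54 to 1.15; limma adjusted p of 0.897). With 1 array left out, the difference was 0.03 to 0.35 for Rbpj and 0.016 to 0.59 for Maml1. The intervals leave room for differences of up to about 1 log2 unit in both.

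Hey1 and Heyl, the pair of Hey repressors known from satellite cells, were the 2 members read above the 95th percentile of the intron controls in all 4 arrays. Their differences had opposite signs, and neither passed the test. Hey1 was at 13.04 and 13.26 in aged arrays against 14.20 and 13.43 in young ones. Both aged arrays were below both young arrays, with the gap between the groups set mostly by young replicate 1. The aged mean was 13.15 ± 0.15 and the young mean 13.82 ± 0.54 (SD, n = 2 each), a difference of -0.67 ± 0.37 (SE; 95% interval -1.57 to 0.23; limma adjusted p of 0.764). The difference was -0.29 without young replicate 1, and it came to -1.05 when young replicate 2 was left out (unadjusted p of 0.0402, adjusted p of 0.458 in limma).

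Heyl was at 13.39 and 13.20 in aged arrays against 13.01 and 11.96 in young ones. Both aged arrays were above both young arrays, but young replicate 1 was close to the aged ones and young replicate 2 was low. The aged mean was 13.29 ± 0.14 and the young mean 12.49 ± 0.75 (SD, n = 2 each), a difference of 0.81 ± 0.42 (SE; 95% interval -0.23 to 1.85; limma adjusted p of 0.749). It came to 0.28 without young replicate 2 and was 1.34 when young replicate 1 was left out (unadjusted p of 0.0154, adjusted p of 0.555 in limma). Each of these Hey genes thus passed an unadjusted p of 0.05 only when 1 particular young array was left out, and a different one for each.

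**Figure D2:**
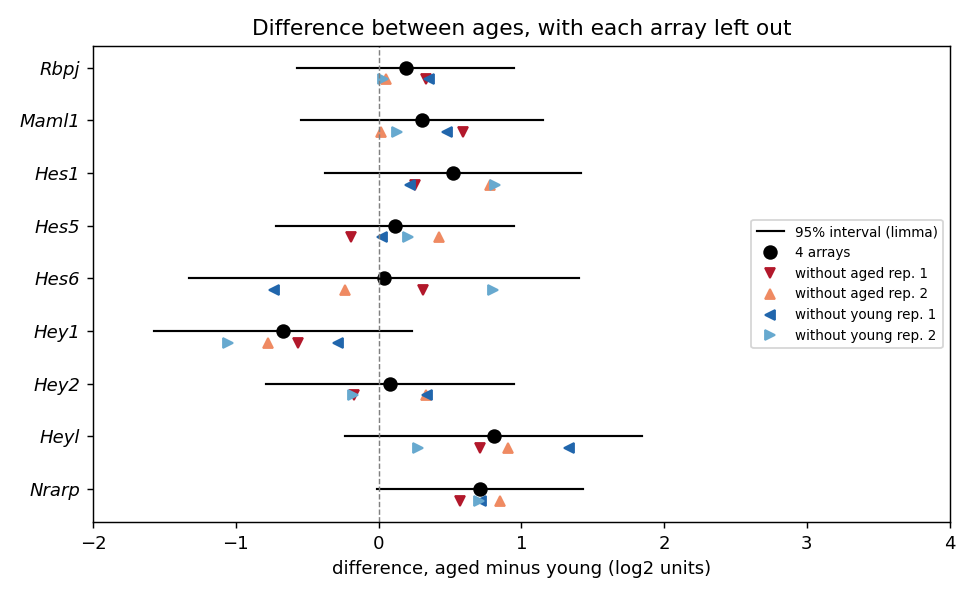
Aged minus young difference of each member in log2 units, with its 95% interval from limma (black) and the difference when 1 array was left out (coloured). All 9 intervals include 0. The estimates of Hes5, Hes6 and Hey2 changed sign when a particular array was left out, and those of the other members did not. For Hey1, Heyl and Nrarp, whose groups did not overlap, leaving out an array could not change the sign.

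Because Hey1 and Heyl are paralogs read on the same arrays, their gap within an array is free of any shift common to all log2 values of that array. Heyl minus Hey1 was 0.35 and -0.06 in aged arrays against -1.19 and -1.48 in young ones. The size of the gap carries probe effects and is not a ratio of transcripts, but its shift between ages, 1.48, was larger than its SD within the aged (0.29) or the young arrays (0.20). That shift is the sum of the opposite differences of the 2 genes. Hey2 minus Hey1 shifted by 0.75 (SD of 0.51 in aged and 0.18 in young arrays) and Heyl minus Hey2 by 0.73 (0.22 and 0.38). The pair of Hey1 and Heyl was chosen after its values were seen, so these shifts are descriptions without a test. With that separation of exon from intron controls in the fit as a covariate, the difference of Hey1 was -0.10 and that of Heyl 1.30.

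Marker levels differed between the same arrays. The mean of the 10 satellite cell markers was 11.95 and 12.41 in aged arrays against 12.73 and 11.52 in young ones. Young replicate 1 was highest, as it was for Hey1, and young replicate 2 lowest, as it was for Heyl. Neither gene followed the order of these markers over all arrays. Hey1 was second highest in young replicate 2, and Heyl was highest in aged replicate 1. The 11 pericyte and smooth muscle markers averaged 13.38 and 12.86 in aged arrays against 13.39 and 12.51 in young ones, also lowest in young replicate 2. Endothelial markers were highest in that array. The part of cell makeup in the readings of Hey1 and Heyl was not tested.

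**Figure D3:**
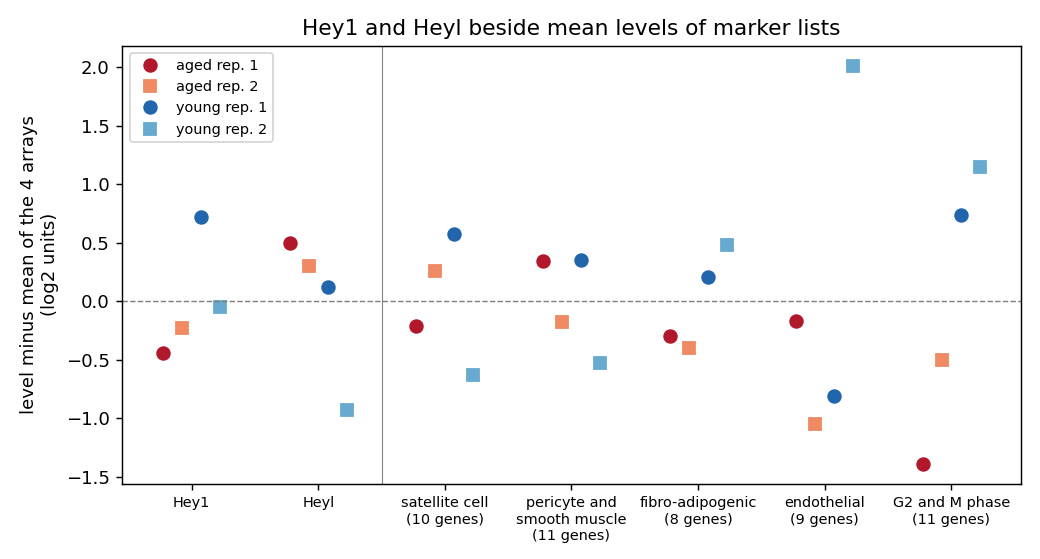
Hey1 and Heyl beside the mean level of 5 marker lists, each centred on its own mean of the 4 arrays (log2 units; red, aged; blue, young). Young replicate 2 is lowest for Heyl and for the satellite cell and pericyte lists and highest for endothelial markers, and both young arrays are high for G2 and M phase genes.

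Hey2, the third of the family and best known from the heart and vessels, was at 7.96 and 7.45 in aged arrays against 7.88 and 7.37 in young ones. The groups overlapped almost fully, with the replicates numbered 1 high and those numbered 2 low in both ages, and the difference was 0.08 ± 0.35 (SE; 95% interval -0.79 to 0.95; limma adjusted p of 0.982). Its readings lay between the 61.5 and 74.2 percentiles of the intron controls. They were lowest in young replicate 2, where the endothelial markers were highest. The part of endothelial cells in the Hey2 readings was not tested.

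The Hes genes were read near background, which limits what the arrays can show of them. Hes1, a classic target of Notch, was at 6.87 and 6.35 in aged arrays against 5.80 and 6.39 in young ones. It was below the intron control median in 3 of the 4 arrays, the groups overlapped, and the difference was 0.52 ± 0.36 (SE; 95% interval -0.38 to 1.42; limma adjusted p of 0.829). It was 0.22 to 0.81 with 1 array left out and -0.13 with the exon against intron covariate. Hes5, a close relative of Hes1 in its dependence on Notch, was at 7.77 and 7.15 in aged arrays against 7.26 and 7.44 in young ones. It stayed above the intron median in every array (57.9 to 66.1 percentiles), with a difference of 0.12 ± 0.34 (95% interval -0.72 to 0.95; limma adjusted p of 0.968) and the young readings lying between the aged ones. The Hes5 promoter printed above, with its pair of Rbpj cores, thus belongs to a gene whose reading did not separate the ages.

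Hes6, the antagonist of Hes1, was at 5.38 and 5.93 in aged arrays against 4.85 and 6.38 in young ones. It was below the intron median in all 4 arrays, and its young readings were farther apart than those of any other member. The difference was 0.04 ± 0.55 (SE; 95% interval -1.33 to 1.40; limma adjusted p of 0.995), so that a difference of over 1 log2 unit in either direction lies within the interval.

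Nrarp, the feedback inhibitor, had the smallest p-value of the 9. It was at 6.96 and 6.68 in aged arrays against 6.11 and 6.10 in young ones. Both aged arrays were above both young ones, and the young readings were almost the same. The aged mean was 6.82 ± 0.20 and the young mean 6.11 ± 0.0088 (SD, n = 2 each), a difference of 0.71 ± 0.29 (SE; 95% interval -0.01 to 1.43; unadjusted p of 0.0527, adjusted p of 0.685 in limma). The estimate ranged from 0.57 to 0.85 with 1 array left out. These readings are themselves at the level of background, between the 41.5 and 53.1 percentiles of the intron controls and below their median in 3 of the 4 arrays. The intron control median was also higher in aged (6.76 and 6.68) than in young arrays (6.25 and 6.62), and its part in the Nrarp difference was not tested. An exact two-sided permutation test over the arrays gave p = 0.333 for Nrarp, Hey1 and Heyl alike, the smallest it can give with 2 arrays per group.

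The genes whose 4 readings ran most like those of Nrarp and Hey1 were found by root-mean-square distance after centring each gene, among 17128 genes. Nearest to Nrarp were Slfn10-ps (0.025), Elovl7 (0.030) and Tas2r126 (0.034 log2 units). Nearest to Hey1, the member with the highest mean reading, were Cops7a (0.025), Calr (0.027) and Gal3st1 (0.027 log2 units). Gal3st1, at 4.05 to 5.22, was read below the intron control median in every array, as were Slfn10-ps and Elovl7. With 4 arrays many genes share a pattern, and the likeness is a description only.

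Upstream of these genes, the Notch receptors and ligands (9 of 9 measured) had no member at an unadjusted p under 0.05, 7 negative differences and a median of -0.15. The smallest p-values were those of the ligand gene Dll1 (-1.29 ± 0.58, SE; limma adjusted p of 0.703), the receptor gene Notch1 (-0.87 ± 0.40) and the ligand genes Jag2 (-1.03 ± 0.50) and Dll4 (-1.27 ± 1.17). In aged arrays Dll1 was at 6.82 and 6.70, Notch1 at 6.11 and 6.88 and Jag2 at 5.91 and 5.90. These readings lay near or below the intron control medians (6.76 and 6.68), so the sizes are uncertain. Notch2, Notch3 and Jag1, read well above those medians, differed by 0.14 ± 0.30, 0.43 ± 0.53 and -0.12 ± 0.43. Dll4, a ligand of endothelial cells, was read at 7.53 and 5.69 in aged arrays against 6.18 and 9.58 in young ones, highest in young replicate 2 like the endothelial markers. Without young replicate 1, 4 receptor and ligand genes were lower (Dll1, Dll4, Jag2 and Notch1) and 1 higher (Notch3) at an unadjusted p under 0.05, where 3.65% of all probe sets were lower and 2.89% higher. Without aged replicate 2, Notch1 alone was lower (4.22% of all). When the exon against intron separation entered the fit, which leaves 1 residual degree of freedom, 3 were lower (Dll1, Dll4 and Jag2; 2.4% of all).

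Among 14 measured enzymes that cleave or glycosylate the receptor, only Adam10 was at an unadjusted limma p under 0.05. Over all probe sets, 7.35% were at that level. Adam10, the protease that sheds the outer part of ligand-bound Notch, was at 10.15 and 10.38 in aged arrays against 12.15 and 10.98 in young ones, a difference of -1.30 ± 0.45 (SE; adjusted p of 0.607 in limma). Both aged arrays were below both young ones; without young replicate 1 the difference was -0.72 (unadjusted p of 0.130 in limma), without aged replicate 1 it was -1.18 (0.110) and without aged replicate 2 it was -1.42 (0.0688). With the exon against intron covariate it was -0.49 (unadjusted p of 0.431 in limma). Adam17, a related protease, differed by -0.52 ± 0.28, Furin, which cuts the receptor precursor, by 0.68 ± 0.43, and the glycosyltransferase gene Mfng by 0.52 ± 0.50.

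Of 7 other coactivators, Maml2, a second Mastermind-like gene, was the 1 at an unadjusted limma p under 0.05 (7.35% of all probe sets were). It was at 10.43 and 10.78 in aged arrays against 9.54 and 9.93 in young ones, a difference of 0.87 ± 0.32 (SE; adjusted p of 0.648 in limma), with both aged arrays above both young ones. That unadjusted p was 0.0421 without young replicate 2 and 0.0535 to 0.157 with any other array left out. It was 0.0547 in limma with dim probe sets left out and 0.0689 with a trend in the variance prior. With the exon against intron covariate it was 0.170. Of these fits only the last could change the sign of the difference, which stayed positive (0.85). The acetyltransferase genes Ep300 and Kat2b differed by -0.35 ± 0.29 and 0.24 ± 0.29, and Snw1, a further cofactor, by -0.26 ± 0.38.

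Corepressors that work with Rbpj or with Hes proteins (11 measured of 13) had a median of -0.45 and no member at an unadjusted p under 0.05. The histone deacetylase genes Hdac2 and Hdac1 differed by -1.07 ± 0.44 and -1.01 ± 0.43 (SE; adjusted p of 0.681 and 0.696 in limma), L3mbtl3, which binds Rbpj, by -0.91 ± 0.39 and the Groucho family gene Tle2 by 0.86 ± 0.46. At an unadjusted p under 0.05, Hdac1 and L3mbtl3 were lower and Tle2 higher without young replicate 1, Hdac2 and Kdm5a were lower without young replicate 2 (5.79% of all probe sets were), Hdac1 was lower without aged replicate 2, and Tle2 was higher with the exon against intron covariate. Dlk1 was the 1 gene at an unadjusted limma p under 0.05 in a list of 12 headed Notch endocytosis and turnover. Over all probe sets, 7.35% were at that level. The others of that list, its endocytosis and turnover genes, were not. Dlk1, an imprinted gene that encodes a membrane protein related to Notch ligands, was at 6.59 and 6.16 in aged arrays against 8.61 and 7.70 in young ones. Both aged arrays were below both young ones and also below the intron control medians given above, so the size of the difference, -1.78 ± 0.41 (SE; unadjusted p of 0.00508, adjusted p of 0.473 in limma), is uncertain. It stayed at an unadjusted p under 0.05 with each array left out (-1.33 to -2.23) but not with the exon against intron covariate (-1.52, p of 0.0731). The others named by their p-values were Dtx2 (0.55 ± 0.29), Itch (-0.65 ± 0.36) and Dtx3 (0.75 ± 0.51), all ubiquitin ligase genes.

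The other Hes-related repressors (6 of 6 measured) had no member at an unadjusted p under 0.05 and a median of 0.14. Bhlhe40 was the 1 of them read above the intron median in every array, at 13.94 and 13.84 in aged arrays against 13.54 and 12.75 in young ones, a difference of 0.74 ± 0.37 (SE; adjusted p of 0.730 in limma). Its order over the arrays, with young replicate 2 lowest, was that of Heyl. Bhlhe41 differed by 0.65 ± 0.37, Hes2 by -0.26 ± 0.31 and Helt by -0.25 ± 0.33.

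Genes linked to Notch output in satellite cells were read as well. Col5a1, Col5a3, Col6a1 and Col6a2 are collagen genes known as Rbpj targets in these cells, and Calcr encodes the calcitonin receptor, through which collagen V acts on them. Of these 5 genes, 3 were lower in aged arrays at an unadjusted p under 0.05, against 3.99% of all probe sets, and none passed the adjusted threshold in limma (smallest adjusted p of 0.514). Col6a1 was at 8.21 and 8.27 in aged arrays against 9.53 and 9.21 in young ones, a difference of -1.13 ± 0.30 (SE). Col5a1 differed by -1.07 ± 0.31 and Col6a2 by -1.07 ± 0.38, in both with the aged arrays below the young ones. Calcr differed by 0.36 ± 0.51 and Col5a3 by -0.12 ± 0.30.

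The count of 3 was 0 without young replicate 1, 1 without aged replicate 1 and 0 with the exon against intron covariate, but the differences kept their sign. Col6a1 differed by -0.97 (unadjusted p of 0.0507 in limma) and Col5a1 by -0.89 without young replicate 1, and by -0.91 and -0.74 with the covariate. Col6a2 differed by -0.70 and -0.38 in these fits. As the groups did not overlap for these 3 genes, leaving out an array could not change a sign, whereas the covariate could. With the covariate Calcr was higher in aged arrays (1.51, unadjusted p of 0.0320 in limma). These collagens are also made by fibroblast-like cells, whose 8 measured markers had a median difference of -0.13. Of those markers, the collagen genes Col1a1 (-3.22) and Col3a1 (-2.10) had the lowest differences. Lower collagen readings were thus not particular to the collagen genes linked to Rbpj. The other 6 markers ranged from -0.54 to 0.64. They averaged 16.04 and 15.80 in aged arrays against 15.57 and 16.34 in young ones, so that the groups overlapped. The part of cell makeup in the collagen differences was not tested.

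Of the 5 myogenic factors, 2 were lower in aged arrays at an unadjusted limma p under 0.05, against 3.99% of all probe sets. These were Myog and Myod1, which the Notch signal is known to restrain. Myog, the regulator of terminal differentiation, was at 11.80 and 13.87 in aged arrays against 14.38 and 15.80 in young ones, a difference of -2.25 ± 0.79 (SE; adjusted p of 0.609 in limma). Myod1, which commits cells to the muscle lineage, was at 8.31 and 9.41 in aged arrays against 9.98 and 10.07 in young ones, a difference of -1.16 ± 0.43 (limma adjusted p of 0.647). In both genes aged replicate 1 was lowest, and without it the differences were -1.22 and -0.62 and neither was at an unadjusted p under 0.05. The count of 2 was 1 without young replicate 1 (Myog) and 1 without young replicate 2 (Myf5, at -1.20), where Myog and Myod1 differed by -1.54 and -1.12. With the exon against intron covariate it was 0, with Myog at -1.83 and Myod1 at -0.57, and Pax7 was higher in aged arrays (1.33, unadjusted p of 0.0362 in limma). The others were Pax7 (0.12 ± 0.51), Myf5 (-0.15 ± 0.68) and Myf6 (0.59 ± 0.71).

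**Figure D4:**
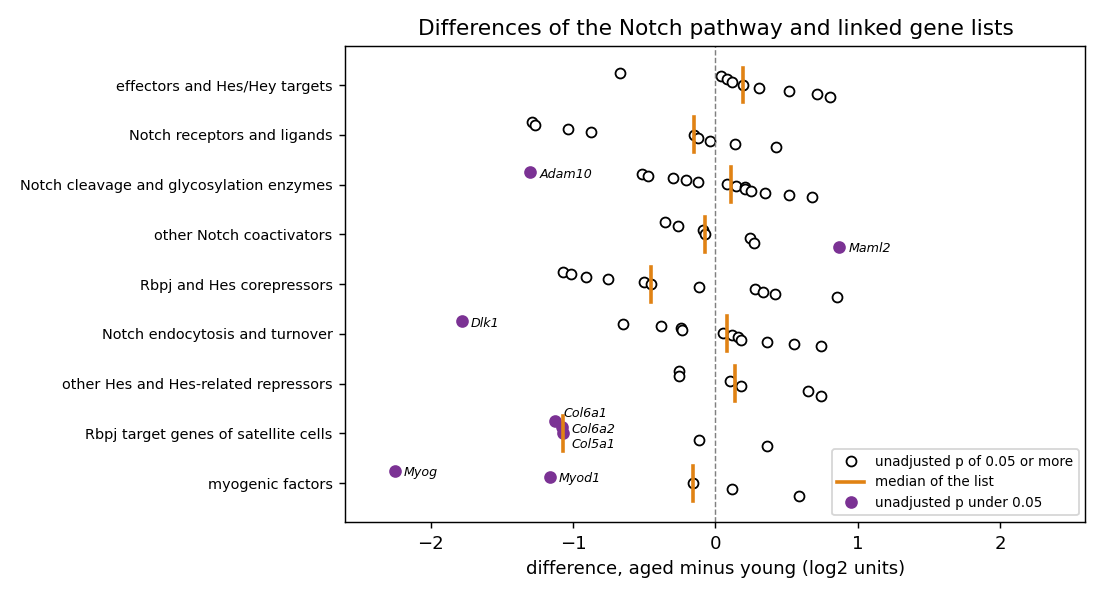
Aged minus young differences (log2 units) of the 9 members and of 8 lists of pathway and linked genes; each point is a gene, filled and named where the unadjusted limma p was under 0.05, and the orange bar is the list's median. No filled point lies among the members, and 3 lie among the 5 genes linked to Rbpj in satellite cells.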

How the data were processed

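The authors deposited 1 table of log2 levels with 28846 entries and a column for each of 4 arrays, made with RMA and the Transcriptome Analysis Console, per the submitters' processing notes. Versions, RMA variant and genome build were not given in the sources used here. Names came from the platform annotation, and the 19572 probe sets with 1 gene symbol were tested, with no filter on low levels; a gene with several was taken by the highest mean, and each member had 1. The ages were compared in R 4.3.3 by lmFit and eBayes of limma 3.58.1 (two-sided, 2 residual degrees of freedom before pooling), and p-values were adjusted after Benjamini and Hochberg over the 19572 probe sets, taking 0.05 as threshold; the code was tested on simulated data. Intron control probe sets (5222) served as the measure of background. The number of arrays limits the precision.

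The members and gene lists were chosen with earlier results of these data known. Up to 4 genes per pathway list were named, those with the smallest p, plus any needed to explain a small count, and the 3 genes nearest in pattern to 2 members; other genes were named after their values were seen. Alternatives were median centring, quantile normalization repeated, leaving out dim probe sets, variance priors with a trend or robust, the replicate block, every entry of the table, averaging the probe sets of a gene, each array left out and, added after seeing the data, a covariate for the exon against intron separation and the fibro-adipogenic markers without collagens. Promoters came from RefSeq (GRCm38.p6).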

Additional observations from a re-analysis of the deposited data

How the results depend on the processing

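Of 114 differences of the 9 members under the alternatives, 105 kept their sign. Many of these could not change. The filter on dim probe sets, both variance priors and the replicate block leave each member's difference as in the main fit. The same holds for every entry of the table and for averaging probe sets. The count is therefore no measure of stability. With the covariate for exon against intron separation, which leaves 1 residual degree of freedom, Hes1 (-0.13), Hes5 (-0.36) and Hes6 (-0.52) turned negative, and Hes6 also did with quantile normalization repeated (-0.016); the cause was not tested. With 1 array left out, the differences ranged from -0.73 to 0.80 for Hes6, -0.19 to 0.43 for Hes5 and -0.18 to 0.34 for Hey2. No member passed the adjusted threshold in limma under any alternative; the count at an unadjusted p under 0.05 ranged from 0 to 1 with 1 array left out (Heyl without young replicate 1, Hey1 without young replicate 2) and was 0 under the others. Hes1, Hes6 and Nrarp gave no value under the filter on dim probe sets. With it, 909 of 10120 tested probe sets were at an unadjusted limma p under 0.05. The share was 5.29% lower and 3.7% higher in aged arrays, against 3.99% and 3.36% in the main fit.

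The replicate numbers could not be shown to pair the arrays (correlation of same-numbered deviations over probe sets of -0.05, 2 pairs). With the replicate block, 2 probe sets passed the adjusted threshold over all genes (Elane and Mpo, no members), and no call of a member changed. With 1 array left out the adjusted count over all genes was 0 to 1 (Kit, without young replicate 2). Low readings limit Hes1, Hes6 and Nrarp most.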
